A study of Mus musculus with 217 samples.

Results

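Interleukin-6 (IL-6) family signaling was followed in the ribosome-bound RNA of mouse endothelial cells (ECs) through 10 genes that make up its core: the ligand genes Il6 and Lif, the receptor genes Il6ra, Il6st and Osmr, the kinase genes Jak1 and Jak2, the transcription factor gene Stat3, and the inhibitor genes Socs1 and Socs3. They were chosen by name from the 52550 gene rows of the count tables. All animals were adult RiboTag-EC mice on C57BL/6J, with the genotype Cdh5CreERT2/+; Rpl22HA/+, in which tamoxifen (5 mg per gavage, 4 gavages from 4 to 6 weeks of age) switches on an HA-tagged ribosomal protein wherever the Cdh5 promoter drives Cre. Brain, lung and heart were taken, and tagged ribosomes precipitated with anti-HA, at 0 hr (labelled control) and at 6, 24, 48, 72 and 168 hr after lipopolysaccharide (LPS, the outer membrane component of Gram-negative bacteria) was given intraperitoneally at 10 mg/kg. The libraries of an organ therefore hold ribosome-bound RNA of tagged ECs together with whatever RNA of other cells came along in the precipitate.

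Cytokines of this family bind receptor complexes that share the subunit gp130, encoded by Il6st. IL-6 first binds its own receptor chain, encoded by Il6ra, which is membrane-bound on few cell types and also circulates in a soluble form, whereas oncostatin M (OSM) and LIF pair gp130 with the chains encoded by Osmr and Lifr. Receptor-bound JAK kinases then phosphorylate STAT3, which moves into the nucleus and switches on acute-phase genes as well as Socs3, whose product shuts the gp130 receptor off again. In ECs this pathway is known for its part in vascular leakage, leukocyte recruitment and the acute-phase response during endotoxemia.

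Of 98 libraries, 80 had at least 3% of their reads on genes and were kept, namely 28 of brain, 24 of lung and 28 of heart. From 0 to 168 hr the groups held 5, 5, 4, 6, 4 and 4 libraries in brain, the same numbers in heart, and 4, 4, 2, 6, 4 and 4 in lung. Reads counted on genes ran from 7226796 to 32891759 per library in brain and from 8136031 to 33050750 in heart, and from 284457 to 43417945 in lung, where 3.4 to 61.0% of reads fell on genes. The 12 endothelial markers were detected in every group, with summed levels at 0 hr of 2711 to 5234 counts per 1000000 (CPM) in brain, 13990 to 22250 in lung and 12360 to 14110 in heart. CPM here are counts per 1000000 of the library size scaled by edgeR's TMM factor, which ran from 1.05 to 1.45 in brain, 0.813 to 1.35 in heart and 0.122 to 1.18 in lung. Markers of other cells were present too, since the summed astrocyte markers of brain at 0 hr came to 1032 to 5149 CPM, the alveolar markers of lung to 6411 to 12980 and the cardiomyocyte markers of heart to 3231 to 6131. The labels do not say that libraries of a group came from separate animals, so p-values measure the spread between libraries.

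Of the 6 hr libraries, 3 stood apart, and their file names give them 1 mouse. The libraries labelled brain 6 hr replicate 6 and heart 6 hr replicate 5 lay near the 0 hr libraries, with Socs3 at 5.86 CPM in brain and 21.3 CPM in heart. Their labels give them LPS and 6 hr, and whether that mouse received LPS as the others did was not tested. The acute-phase gene Lcn2 was lowest of the 6 hr libraries in them, at 289 CPM in brain and 46.7 CPM in heart, yet above every 0 hr library (at most 37.2 and 19.7 CPM). The third, lung 6 hr replicate 4, held 284457 counts and had the lowest TMM factor, 0.122, so that 1 read in it equals 28.9 CPM, or 3.515 CPM without the factor, and Il6ra, Osmr, Jak2, Stat3, Socs1 and Socs3 were all listed at 0 in it. Counts of calls and the 6 hr fold changes of the members are given with all 80 libraries and without these 3. In a whole organ less RNA per cell and fewer cells of a type cannot be told apart.

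The stretches just before the starts of Il6 and Socs3 are shown because these were the ligand and the inhibitor that rose furthest in brain ECs and were called in all 3 organs. Both come from RefSeq on GRCm38.p6, where all 10 genes had an entry, and are the 250 bases before the transcript start, read 5′ to 3′ on the gene's strand. Il6 was taken from chr5:30012864-30013113 on the plus strand and Socs3 from chr11:117969367-117969616 on the minus strand, where a GENCODE transcript without coding sequence has an exon in part of the window. Capitals mark matches to 3 patterns searched on both strands, TTCNNNGAA for STAT factors, GGG followed by any 2 bases and TTTCC for NF-kappaB, and TGAGTCA for AP-1.
Il6: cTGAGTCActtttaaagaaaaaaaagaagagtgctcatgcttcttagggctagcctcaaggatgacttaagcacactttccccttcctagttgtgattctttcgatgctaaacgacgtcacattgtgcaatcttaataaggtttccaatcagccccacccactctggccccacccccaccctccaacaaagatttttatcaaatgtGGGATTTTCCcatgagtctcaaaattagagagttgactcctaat
Socs3: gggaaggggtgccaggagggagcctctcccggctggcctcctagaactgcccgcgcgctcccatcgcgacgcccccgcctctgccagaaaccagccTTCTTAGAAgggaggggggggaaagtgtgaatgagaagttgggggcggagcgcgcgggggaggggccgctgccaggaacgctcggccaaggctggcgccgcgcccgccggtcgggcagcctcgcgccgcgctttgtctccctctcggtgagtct

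The STAT pattern was found in Socs3 alone of the 10 genes, beginning at position -154 from the start, and in 7.02% of all 32851 promoter windows of this length. The NF-kappaB pattern was found in Il6 alone of the 10, at position -44, and in 1.41% of all windows. The AP-1 pattern was found in Il6 at position -249 and in Lif at position -228, and in 4.46% of all windows, and no match overlapped another. A match is a description of letters, not of a bound site.

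After LPS the pathway rose in brain and heart ECs and hardly passed the test in lung ECs. In brain ECs 8 of the 10 genes rose by 6 hr (all but Jak1 and Jak2), 7 were still higher at 24 hr (Il6, Lif, Il6ra, Osmr, Stat3, Socs1 and Socs3) and 5 at 48 hr (Il6, Il6ra, Osmr, Stat3 and Socs3), against 4.21, 6.52 and 8.11% of all genes tested that rose at these times. In heart ECs all 10 rose by 6 hr, 8 stayed higher at 24 hr (all but Il6st and Jak1) and 3 at 48 hr (Il6, Osmr and Socs3), against 22.4, 9.07 and 3.08% of all genes. In lung ECs Il6 and Socs3 rose at 6 hr, against 2.56% of all genes, and none of the 10 passed at 24 or 48 hr, when 0.363 and 0.428% of genes rose. None passed at 72 hr, when 2.98, 0.17 and 0.275% of genes rose in brain, lung and heart, or at 168 hr, when 0% did in each organ. No member was called lower after LPS at any time in any organ. In lung ECs at 168 hr the median log2 fold change of the members was -0.897, with that of all genes at -0.002, and 0.0117% of genes were called lower.

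The median log2 fold change of the 10 genes at 6, 24 and 48 hr was 2.33, 1.92 and 1.20 in brain ECs and 2.82, 1.95 and 1.20 in heart ECs, while the medians of all genes tested lay between -0.05 and 0.02. In lung ECs at 6 hr it was 1.18, with the median of all genes at -0.42. All these comparisons share the 0 hr libraries of their organ. Without the 3 libraries that stood apart, all 10 genes rose at 6 hr in brain ECs, against 7.63% of genes, Il6ra was also higher at 72 hr, against 3.88%, and in heart ECs 10 rose at 6 hr and 6 at 48 hr, against 27.8 and 5.37%. The lung count at 6 hr stayed 2, the same genes, against 2.38%.

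Endothelial markers were lower at 6 hr in the heart libraries where the members were higher, and in part of the brain ones. Their summed level in heart was 12360 to 14110 CPM at 0 hr (median 12710) and 5306 to 7579 CPM in 4 of the 5 libraries at 6 hr, with 13440 CPM in replicate 5, and it was 10590 to 13260 CPM at 24 hr. In brain it was 2711 to 5234 CPM at 0 hr and at 6 hr 1860, 3270, 2175, 2393 and, in replicate 6, 3370 CPM, so that replicate 2, with the highest Il6, Lif, Osmr and Socs3, lay within the 0 hr range. That replicate also held the most neutrophil markers (415 CPM against 7.86 to 52.3 in the other 4), mural cell markers (3271 against 183 to 227) and astrocyte markers (7472 against 1676 to 3294), where the 0 hr libraries reached 57.6, 2543 and 5149 CPM. In heart, the 4 libraries with low endothelial markers at 6 hr also had fewer reads on genes, 43.69 to 54.75% against 60.52 to 65.74% at 0 hr and 67.66% in replicate 5. The part of these shifts in the 6 hr values was not tested.

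**Figure D1:**
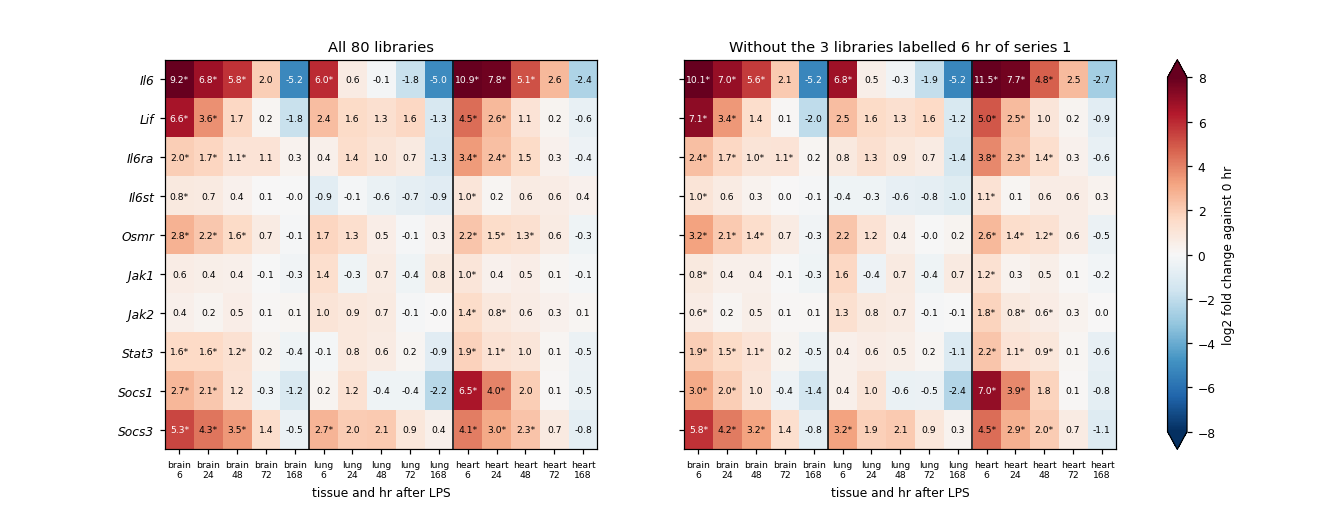
Log2 fold change against 0 hr of each of the 10 genes at 6, 24, 48, 72 and 168 hr in brain, lung and heart ECs (edgeR), from all 80 libraries on the left and without the 3 libraries that stood apart on the right, with an asterisk where the adjusted p was under 0.05. On the left the asterisks lie at 6 to 48 hr in brain and heart, and in lung only on Il6 and Socs3 at 6 hr.

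Il6 (chr5:30013114-30019981, plus strand) encodes the founding ligand of the family, and was almost unread in resting ECs. In brain ECs at 0 hr its level was 0.269, 0, 0.0708, 0.0702 and 0.0345 CPM, or 8 reads over the whole group. At 6 hr it stood at 28.0, 73.5, 27.1, 5.38 and, in the library labelled replicate 6, 0 CPM. At 24 hr the 4 libraries held 15.0, 8.63, 52.7 and 67.1 CPM. All 24 hr libraries and 4 of the 5 at 6 hr lay above every 0 hr library. The log2 fold change was 9.17 ± 1.51 (SE, adjusted p = 0.000449) at 6 hr, or 10.09 ± 1.15 without replicate 6, 6.78 ± 1.48 (adjusted p = 0.005) at 24 hr and 5.80 ± 1.51 (adjusted p = 0.0137) at 48 hr. These folds rest on very few reads at 0 hr, and each of the 3 calls was lost with limma-voom, the 48 hr one also in 2 of 28 fits that left out 1 library.

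In heart ECs Il6 rose from 0, 0.163, 0.108, 0.227 and 0.169 CPM at 0 hr to 434, 468, 258, 135 and, in the library labelled replicate 5, 0 CPM at 6 hr, and held 31.4, 55.4, 175 and 122 CPM at 24 hr. The difference was 10.89 ± 1.49 (log2, adjusted p = 2.02e-05) at 6 hr, or 11.46 ± 0.97 without replicate 5, 7.78 ± 1.38 (adjusted p = 0.00163) at 24 hr, a call lost with limma-voom, and 5.10 ± 1.37 (adjusted p = 0.0343) at 48 hr. At 48 hr the lowest heart library held 0.719 CPM, the median was 5.99 and the highest 62.2, all above 0 hr. By 168 hr Il6 was back at 0 to 0.262 CPM in heart and at 0 to 0.0261 CPM in brain. In lung ECs the levels were 4.93, 0.0659, 0 and 0 CPM at 0 hr and 3.58, 0, 6.85 and 57.8 CPM at 6 hr, the last from 2 reads (7.031 CPM without the TMM factor), so the groups overlapped although the fit gave 5.96 ± 1.60 (adjusted p = 0.0272), or 6.79 ± 1.77 (adjusted p = 0.0288) without lung 6 hr replicate 4. This call was lost with no series term and in 2 of 24 fits that left out 1 library, and the fold ran from 2.56 to 7.12 over the 10 alternatives. Of the 18 Il6 reads of lung at 0 hr, 17 were in replicate 1.

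Lif (chr11:4257557-4272514, plus strand) encodes leukemia inhibitory factor, which signals through gp130 and the LIF receptor. It was called at 6 and 24 hr in brain and heart ECs. Its brain level was 0.628, 0.155, 0.672, 0.246 and 0.414 CPM at 0 hr, and 55.2, 120, 19.2, 1.23 and, in replicate 6, 0.308 CPM at 6 hr. At 24 hr the level was 9.36, 4.26, 5.67 and 9.88 CPM, above every 0 hr library. The log2 fold change went from 6.61 ± 1.12 (adjusted p = 0.000536) at 6 hr, or 7.14 ± 0.89 without replicate 6, to 3.65 ± 1.09 (adjusted p = 0.032) at 24 hr. The 6 hr call was lost with limma-voom, and the 24 hr call with limma-voom, the replicate block and in 6 of 28 fits that left out 1 library.

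In heart ECs Lif went from 0.251 to 0.572 CPM at 0 hr to 11.6, 13.7, 7.03, 9.66 and, in replicate 5, 0.128 CPM at 6 hr, with 1.83, 2.39, 6.53 and 6.14 CPM at 24 hr. These differences were 4.45 ± 0.82 (log2, adjusted p = 0.000318), or 4.97 ± 0.58 without replicate 5, and 2.62 ± 0.83 (adjusted p = 0.0361), the last lost with limma-voom, the replicate block and in 9 of 28 such fits. In lung ECs, where resting Lif was highest, it held 7.54, 1.25, 1.55 and 1.72 CPM at 0 hr and 11.4, 5.82, 11.5 and 28.9 CPM at 6 hr, and the difference of 2.44 ± 0.95 did not pass (adjusted p = 0.124), nor did that of 2.47 without lung 6 hr replicate 4 (adjusted p = 0.162). That replicate held 1 Lif read, which without the TMM factors (3.515 CPM against 7.095, 1.457 and 9.146) was not the highest of the group.

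Il6ra (chr3:89864059-89913196, minus strand) encodes the chain that binds IL-6 itself. In heart ECs it was low at rest and rose steeply, from 7.80, 5.47, 10.1, 6.46 and 6.65 CPM at 0 hr to 142, 88.5, 95.6, 56.0 and, in replicate 5, 8.80 CPM at 6 hr. It still stood at 30.5, 40.4, 76.3 and 57.7 CPM at 24 hr, above every 0 hr library. The log2 fold change was 3.42 ± 0.53 (adjusted p = 5.42e-05), or 3.84 ± 0.40 without replicate 5, and then 2.402 ± 0.538 (adjusted p = 0.00642).

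In brain ECs Il6ra went from 20.8, 36.8, 15.0, 16.9 and 14.3 CPM to 76.2, 98.1, 79.5, 72.7 and, in replicate 6, 21.0 CPM at 6 hr, a difference of 1.99 ± 0.37 (adjusted p = 0.00132), or 2.39 ± 0.26 without replicate 6. At 24 hr it held 127, 65.7, 40.2 and 48.9 CPM (1.71 ± 0.37, adjusted p = 0.00503), a call lost with the replicate block. At 48 hr it held 20.5 to 60.9 CPM with a median of 52.3 (1.08 ± 0.35, adjusted p = 0.0423), where the groups overlapped. Il6ra lost the 48 hr call in 14 of 28 fits that left out 1 library, with the replicate block and with limma-voom. At 72 hr it held 35.0, 36.1, 53.9 and 38.8 CPM, 1.07 ± 0.37 above 0 hr (adjusted p = 0.114), or 1.08 ± 0.24 (adjusted p = 0.00834) without the library labelled brain 6 hr replicate 6, and was then the only member called at that time. In lung ECs Il6ra ranged from 23.7 to 104 CPM at 0 hr and from 0 to 286 CPM at 6 hr, with a difference of 0.43 ± 0.75 (adjusted p = 0.772), or 0.79 ± 0.75 without replicate 4 (adjusted p = 0.571). Of its exon bases, 242 overlap the opposite-strand gene Gm42809, and whether counting used strand is not given.

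Il6st (chr13:112464070-112510086, plus strand), the shared gp130 subunit, had the highest median resting level per kilobase of the 10 genes in all 3 organs, and the smallest fitted 6 hr fold of the 3 receptor genes in brain and heart. In brain ECs it went from 326, 314, 256, 309 and 251 CPM at 0 hr to 501, 575, 460, 495 and, in replicate 6, 321 CPM at 6 hr, a difference of 0.79 ± 0.23 (log2, adjusted p = 0.0408), or 1.02 ± 0.21 without replicate 6. That call was lost in 10 of 28 fits that left out 1 library, with no series term, with the replicate block and with limma-voom. In heart ECs it went from 337, 388, 451, 479 and 491 CPM to 1020, 1079, 1000, 698 and 541 CPM, so that all 6 hr libraries, replicate 5 included, lay above 0 hr (0.99 ± 0.23, adjusted p = 0.00196, or 1.13 ± 0.23 without replicate 5). At 24 hr the heart libraries were back at 327 to 484 CPM, within the 0 hr range of 337 to 491 but for the lowest. In lung ECs it ran from 633 to 1554 CPM at 0 hr and from 86.7 to 2242 CPM at 6 hr (-0.87 ± 0.70, adjusted p = 0.464, or -0.37 ± 0.65, adjusted p = 0.777, without replicate 4).

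Osmr (chr15:6813577-6874969, minus strand) encodes the OSM receptor chain. In brain ECs it went from 19.2, 34.4, 22.4, 21.5 and 23.4 CPM at 0 hr to 143, 304, 144, 133 and, in replicate 6, 22.1 CPM at 6 hr, and to 205, 90.0, 143 and 117 CPM at 24 hr. The log2 differences were 2.77 ± 0.51 (adjusted p = 0.0011) at 6 hr, or 3.20 ± 0.38 without replicate 6, 2.18 ± 0.52 (adjusted p = 0.00864) at 24 hr and 1.56 ± 0.49 (adjusted p = 0.0359) at 48 hr, where both later calls were lost with the replicate block and that at 48 hr also with limma-voom and in 6 of 28 fits that left out 1 library. In heart ECs, where its resting level was several times that of brain, it rose from 66.4, 75.9, 101, 86.4 and 84.9 CPM to 566, 584, 336, 376 and, in replicate 5, 102 CPM at 6 hr, so that even the library that stood apart lay above all controls.

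The heart differences in Osmr were 2.23 ± 0.34 (adjusted p = 5.08e-05) at 6 hr, or 2.57 ± 0.26 without replicate 5, 1.49 ± 0.36 (adjusted p = 0.00973) at 24 hr and 1.29 ± 0.33 (adjusted p = 0.0273) at 48 hr, when the 6 libraries held 118 to 326 CPM (median 207), all above 0 hr. Osmr lost the 24 hr call with the replicate block. It was 1 of 3 members still called there at 48 hr, all of which lost the call with limma-voom and the replicate block, and in 5 (Osmr), 8 (Il6) and 7 (Socs3) of 28 fits that left out 1 library. In lung ECs Osmr held 17.1, 16.7, 15.4 and 51.5 CPM at 0 hr and 124, 100.4, 64.9 and, in replicate 4, 0 CPM at 6 hr, and the difference of 1.73 ± 0.72 did not pass (adjusted p = 0.147), nor that of 2.21 ± 0.68 without replicate 4 (adjusted p = 0.0634). With the TMM factors 3 of the 4 libraries lay above every control, and without them 1 did (77.3, 25.1, 51.4 and 0 CPM against 11.8 to 53.9).

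Jak1 and Jak2, the kinases bound to the receptor tails, had the smallest fitted folds in brain ECs at 6 hr, where neither passed the test with all libraries. Jak1 (chr4:101152367-101265282, minus strand) held 82.5 to 106 CPM in brain at 0 hr and 137, 148, 138, 137 and, in replicate 6, 100.0 CPM at 6 hr (0.57 ± 0.19, adjusted p = 0.0826), or 0.77 ± 0.18 (adjusted p = 0.00422) without that library. Jak2 (chr19:29251828-29313080, plus strand) held 31.4 to 60.3 CPM in brain at 0 hr and 46.0, 89.8, 47.9, 40.7 and 46.0 CPM at 6 hr, a difference of 0.42 ± 0.20 (adjusted p = 0.262), or 0.60 ± 0.20 (adjusted p = 0.0454) without that library, and the groups overlapped either way.

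In heart ECs both kinases rose. Jak1 went from 238, 214, 266, 250.1 and 211 CPM to 473, 734, 460.3, 402 and, in replicate 5, 211 CPM at 6 hr (0.96 ± 0.23, adjusted p = 0.00214, or 1.22 ± 0.18 without that library). Jak2 went from 76.8, 62.9, 76.9, 86.8 and 61.8 CPM to 242, 307, 193, 185 and, in replicate 5, 68.9 CPM (1.44 ± 0.26, adjusted p = 0.000263, or 1.75 ± 0.19 without it). Jak2 was still higher at 24 hr, at 152, 99.4, 178 and 129 CPM, by 0.82 ± 0.28 (adjusted p = 0.0488), the highest adjusted p among the heart calls. That call was lost in 21 of 28 fits that left out 1 library, with the replicate block and with limma-voom. In lung ECs at 6 hr Jak1 ran from 45.9 to 403 CPM and Jak2 from 0 to 119 CPM, against 24.8 to 185 and 16.8 to 26.4 CPM at 0 hr, and neither difference passed (1.36 ± 0.70, adjusted p = 0.237, and 1.002 ± 0.679, adjusted p = 0.379), nor without replicate 4 (1.65, adjusted p = 0.213, and 1.31, adjusted p = 0.264).

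Stat3 (chr11:100885098-100939540, minus strand), the transcription factor on which the receptors converge, rose in brain and heart ECs and did not pass the test in lung ECs. In brain ECs it went from 115, 110, 87.1, 91.4 and 81.1 CPM at 0 hr to 304, 407, 298, 230 and, in replicate 6, 86.2 CPM at 6 hr, and reached 353, 273, 486 and 519 CPM at 24 hr. The log2 difference was 1.58 ± 0.38 (adjusted p = 0.0105) at 6 hr, or 1.95 ± 0.31 without replicate 6, 1.59 ± 0.40 (adjusted p = 0.0136) at 24 hr and 1.21 ± 0.38 (adjusted p = 0.034) at 48 hr. The 6 hr call was lost with no series term, the 24 hr call with the replicate block and in 1 of 28 fits that left out 1 library, and the 48 hr call with the replicate block, limma-voom and in 7 of 28 such fits. Its brain median was highest at 24 hr, as were those of Il6, Il6st, Jak1 and Socs3, while those of Lif, Il6ra, Osmr and Socs1 were highest at 6 hr. The fitted folds of Il6 and Socs3 were nevertheless larger at 6 hr. Library series 4 has brain libraries at 24 hr but none at 6 hr. Within series 2 the 24 hr library lay below every 6 hr library for Il6st, Jak1 and Socs3, and within their range for Il6 and Stat3. A peak at 24 hr thus cannot be told apart from library series.

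In heart ECs the median of every member was highest at 6 hr. Stat3 there went from 180, 182, 200, 165 and 158 CPM to 948, 694, 800, 406 and, in replicate 5, 184 CPM (1.85 ± 0.35, adjusted p = 0.000412, or 2.20 ± 0.27 without that library), and held 341, 400, 677 and 692 CPM at 24 hr (1.14 ± 0.38, adjusted p = 0.0403), a call lost with the replicate block and in 14 of 28 such fits. In lung ECs, where resting Stat3 was highest, it held 338, 388, 436 and 271 CPM at 0 hr and 226, 255, 952 and 0 CPM at 6 hr, with a difference of -0.13 ± 0.75 (adjusted p = 0.94), or 0.43 ± 0.65 without replicate 4 (adjusted p = 0.739). Of its exon bases, 72 overlap Stat5a on the opposite strand.

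Socs1 and Socs3 encode inhibitors of the same cascade, of which SOCS1 acts mainly on JAKs in the interferon response and SOCS3 binds gp130. Socs1 (chr16:10782240-10785536, minus strand) had the larger fitted fold of the pair in heart, going from 1.58, 2.61, 1.65, 1.85 and 3.31 CPM at 0 hr to 474, 288, 250.1, 96.2 and, in replicate 5, 3.64 CPM at 6 hr, a difference of 6.55 ± 0.90 (log2, adjusted p = 2.18e-05), or 7.05 ± 0.66 without it. Even this last library lay above the controls, though only just. At 24 hr Socs1 held 18.5, 38.2, 46.9 and 65.4 CPM in heart (3.96 ± 0.84, adjusted p = 0.00459).

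In brain ECs Socs1 reached far lower levels, from 1.08, 0.928, 1.59, 2.28 and 1.76 CPM at 0 hr to 11.9, 16.5, 16.9, 4.15 and, in replicate 6, 1.70 CPM at 6 hr (2.67 ± 0.60, adjusted p = 0.00607, or 3.04 ± 0.55 without that library), with 4.46, 5.51, 18.2 and 20.8 CPM at 24 hr (2.12 ± 0.67, adjusted p = 0.0401), a call lost in 10 of 28 fits that left out 1 library. Socs1 also lost the 24 hr call with the replicate block and with limma-voom. In lung ECs it held 13.3, 11.7, 10.7 and 2.74 CPM at 0 hr and 4.18, 0, 21.2 and 0 CPM at 6 hr (0.22 ± 1.07, adjusted p = 0.929, or 0.44 ± 1.15, adjusted p = 0.864, without replicate 4). At 24 hr the lung libraries held 52.1 and 61.9 CPM, above all controls, but with 2 libraries the difference of 1.230 ± 1.502 did not pass (adjusted p = 1.0).

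Socs3 (chr11:117966079-117970047, minus strand), whose start region carries the STAT pattern shown above, was called higher in each organ, in lung with a call that 4 of 10 alternatives lost. In brain ECs it went from 5.92, 8.67, 4.00, 6.91 and 5.86 CPM at 0 hr to 204, 433, 225, 141 and, in replicate 6, 5.86 CPM at 6 hr, and held 192, 114, 306 and 360 CPM at 24 hr. At 48 hr it ranged from 13.5 to 246 CPM with a median of 148, all above the controls. The log2 differences were 5.33 ± 0.79 (adjusted p = 0.000199, or 5.79 ± 0.54 without replicate 6), 4.30 ± 0.77 (adjusted p = 0.00124) and 3.46 ± 0.75 (adjusted p = 0.00453), the last lost with limma-voom. At 72 hr the brain libraries held 10.9, 14.4, 18.6 and 60.9 CPM, still above all controls though without passing the test, and at 168 hr 6.82 to 11.1 CPM.

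In heart ECs Socs3 went from 15.5, 12.1, 16.7, 18.3 and 15.8 CPM to 320, 489, 207, 170 and, in replicate 5, 21.3 CPM at 6 hr (4.07 ± 0.63, adjusted p = 5.42e-05, or 4.49 ± 0.47 without that library), 118, 112, 230 and 347 CPM at 24 hr (3.00 ± 0.64, adjusted p = 0.00489) and 25.4 to 253 CPM with a median of 74.3 at 48 hr (2.26 ± 0.61, adjusted p = 0.0343). Every heart library from 6 to 48 hr lay above every control. In lung ECs it held 10.7, 13.6, 8.51 and 32.6 CPM at 0 hr and 259, 119, 24.0 and, in replicate 4, 0 CPM at 6 hr, and the groups overlapped while the fit gave 2.74 ± 0.71 (adjusted p = 0.0239). This call was lost in 4 of 24 fits that left out 1 library and with all 98 libraries, the replicate block, limma-voom and ComBat, where it turned to -0.13. Without lung 6 hr replicate 4 the difference was 3.21 ± 0.66 (adjusted p = 0.00613). Without the TMM factors the 6 hr levels were 162, 29.9, 19.1 and 0 CPM against 6.59 to 34.1 at 0 hr.

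Only replicates 1 and 2 of the lung 6 hr libraries lay above the 0 hr range of Socs3, and these also held fewer endothelial reads and more of other cells. Their summed endothelial markers were 3082 and 7987 CPM against 13990 to 22250 at 0 hr, their alveolar markers 28590 and 16480 CPM against 6411 to 12980, and their cardiomyocyte markers 985 and 1376 CPM against 61.8 to 154. Monocyte and macrophage markers stood at 4138 CPM in replicate 1, against 246 to 658 at 0 hr, and at 451 CPM in replicate 2. Replicate 3, with endothelial markers at 16680 CPM, within the 0 hr range, held Socs3 within the 0 hr range too, and its neutrophil markers were at 3550 CPM against 45.7 to 211. Replicate 4, with no Socs3 read, had endothelial markers at 3438 CPM. The part of these cells in the Socs3 values was not tested.

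**Figure D2:**
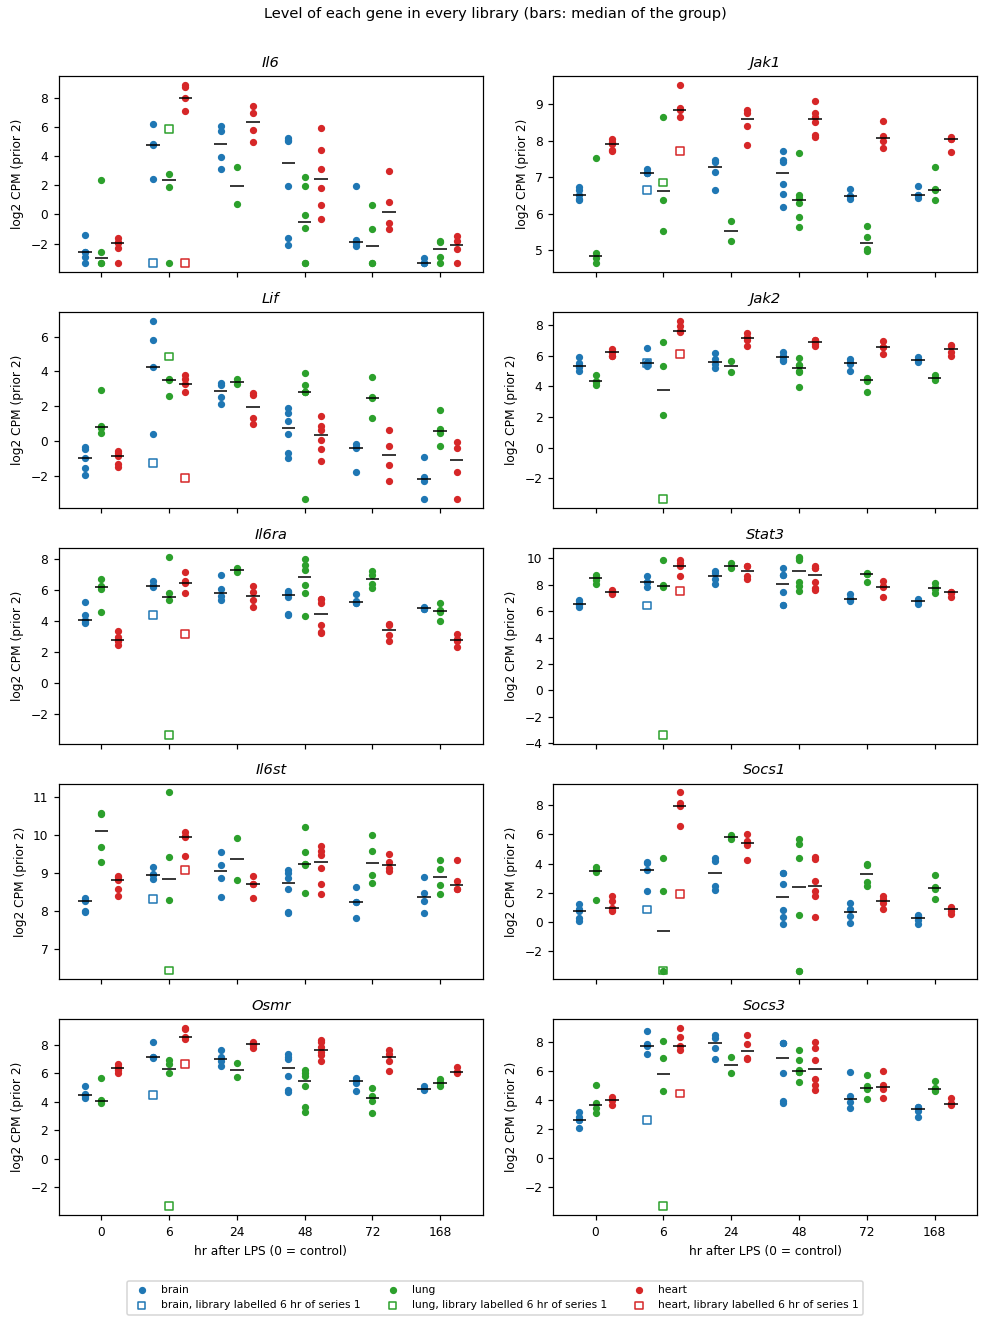
Level of each of the 10 genes, as log2 CPM with a prior count of 2, in every kept library against the time after LPS, with brain in blue, lung in green and heart in red. Points are libraries, bars the group medians, and open squares the 3 libraries that stood apart at 6 hr; the brain square of Socs3 sits among the 0 hr points while the other 4 brain libraries at 6 hr lie at 141 to 433 CPM against 4.00 to 8.67.

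From 1 time to the next, no member passed the test with all libraries. The steps 24 against 6 hr, 48 against 24 hr, 72 against 48 hr and 168 against 72 hr changed 0.291, 0, 0 and 8.29% of all genes in brain ECs, 0.00586, 0, 0.0176 and 1.13% in lung ECs and 4.74, 0, 0.00624 and 0.0686% in heart ECs. At an unadjusted p under 0.05, 9 of the 40 member steps passed in brain, 3 in lung and 16 in heart, and DESeq2 called 2, 1 and 2. The share of all genes under that unadjusted p is not given here, so nothing particular to the members is read from these counts. Without the library labelled heart 6 hr replicate 5, all 10 members fell from 6 to 24 hr in heart ECs, when 15.2% of genes fell, among them Socs1 by 3.18 ± 0.67 (log2, adjusted p = 0.00103) and Socs3 by 1.62 ± 0.52 (adjusted p = 0.0216).

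Without that heart library Il6 and Socs1 also fell in heart ECs from 24 to 48 hr, when 2.26% of genes fell, and Il6 and Osmr from 72 to 168 hr, when 1.46% did. In brain ECs, without the library labelled brain 6 hr replicate 6, Lif was the member that fell from 6 to 24 hr, by 3.69 ± 0.91 (adjusted p = 0.0409), when 0.494% of genes fell. Without it Il6, Il6ra and Socs3 fell from 72 to 168 hr, when 7.3% of genes did. These steps were not tested between organs.

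At 48 hr Socs3 and Stat3 differed by far more between the libraries of brain, and of heart, than at 0 hr, and the same mice were low in both organs. Replicates 1 and 2, both of library series 2 by their file names, held Socs3 at 15.0 and 13.5 CPM in brain and 31.6 and 25.4 CPM in heart, whereas replicates 3, 6 and 7 held 239, 246 and 240 CPM in brain and 253, 188 and 105 CPM in heart. Replicate 4 lay between, at 57.0 CPM in brain and 43.7 CPM in heart. Stat3 followed, at 90.9 and 88.9 CPM in brain replicates 1 and 2 against 431, 618 and 438 CPM in replicates 3, 6 and 7. Il6st did not, since replicates 1 and 2 were lowest in brain (251 and 246 CPM against 386 to 548) but lay above replicates 3, 6 and 7 in heart (763 and 709 CPM against 354 to 565). Library series is a term in the main fits, and its part in this spread was not tested. Series and time can only partly be told apart. No kept library of series 4 is at 0 or 6 hr and none of series 2 at 168 hr. At 6 hr series 1 is held only by the 3 libraries that stood apart. Brain replicates 1 and 2 also differed from the other 4 in the summed markers of other cells, with mural cell markers at 1203 and 1811 CPM against 71.4 to 293, astrocyte markers at 5411 and 5291 CPM against 1018 to 2351, neuron markers at 2263 and 1629 CPM against 469 to 970, and fibroblast markers at 627 and 461 CPM against 1958 to 5124. In heart, replicates 1, 2 and 4, the low ones, held monocyte and macrophage markers at 189.9, 320.3 and 171 CPM against 44.7 to 52.7 in replicates 3, 6 and 7, and neuron markers at 85.8, 66.6 and 55.5 CPM against 7.47 to 10.4. The part of these cells in the low values was not tested.

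Over the 28 mice with both organs, deviations from the time means correlated between brain and heart at r = 0.94 for Socs3, 0.90 for Stat3, 0.87 for Il6, 0.85 for Osmr and 0.81 for Socs1, and least for Il6st at 0.036. Without the 6 hr mouse that stood apart (27 mice) they were 0.90, 0.87, 0.82, 0.73, 0.81 and -0.11, while that of Lif went from 0.60 to 0.26 and that of Il6ra from 0.53 to 0.20. These values are descriptions: the points share mouse, library series and, within a time, the group mean, and the mouse was read from the file names.

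**Figure D3:**
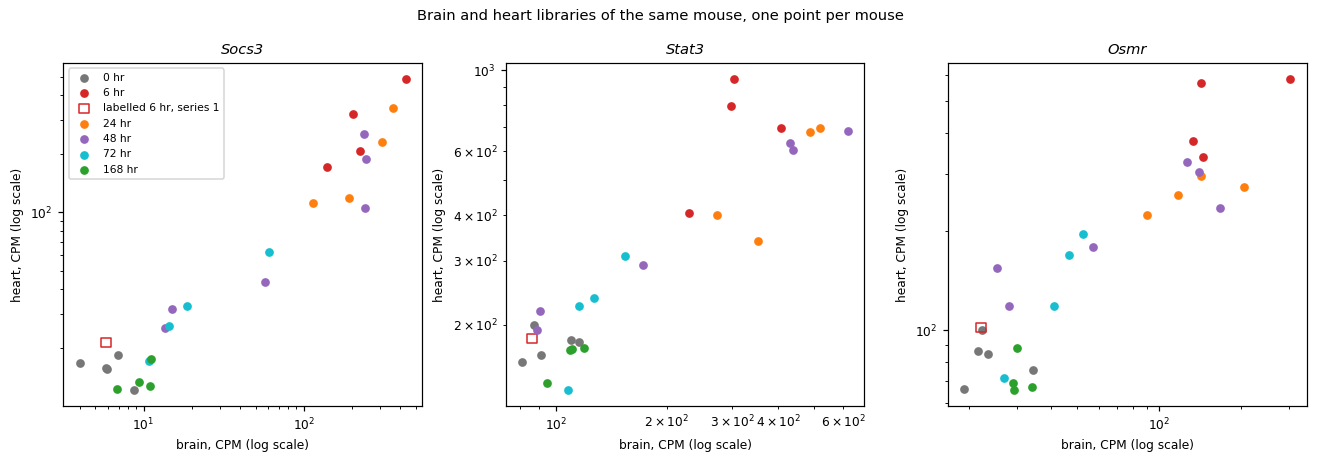
Level of Socs3, Stat3 and Osmr in brain (x axis) against heart (y axis) of the same mouse, in CPM on log axes, with 1 point per mouse, color for the time after LPS and an open square for the 6 hr mouse that stood apart. For Socs3 the 48 hr mice spread from 13.5 to 246 CPM in brain and from 25.4 to 253 CPM in heart, with the same 2 mice lowest in both.

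In lung ECs the spread between libraries was wide already at 0 hr, which bears on each lung value above. Replicate 4 had 56.2% of reads on genes against 18.8 to 28.6% in the other 3, and held Jak1 at 185 CPM against 24.8 to 30.1, Osmr at 51.5 CPM against 15.4 to 17.1, Socs3 at 32.6 CPM against 8.51 to 13.6, Il6ra at 23.7 CPM against 68.1 to 104 and Socs1 at 2.74 CPM against 10.7 to 13.3. Summed neutrophil markers in lung went from 45.7 to 211 CPM at 0 hr to 28.9 to 4149 at 6 hr, 1507 to 2738 at 24 hr and 669 to 4886 at 48 hr. Summed endothelial markers went from 13990 to 22250 CPM at 0 hr to 3082 to 16680 at 6 hr. Their part in the lung values was not tested. At 24 hr both lung libraries lay above all controls for Lif, Il6ra, Osmr, Jak2, Stat3, Socs1 and Socs3, and at 48 hr all 6 did for Socs3 (38.0 to 175 CPM), with no member passing the test. The share of all genes that separate in this way was not counted, so nothing particular to the members is read from it.

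Brain and heart held fewer neutrophil reads. The summed neutrophil markers were 6.37 to 57.6 CPM in brain at 0 hr and 7.86 to 415 at 6 hr, and in heart 0.969 to 1.55 CPM at 0 hr, with Ly6g, Camp, Mmp8 and Elane at 0, and 0.957 to 62.9 at 6 hr. Summed monocyte and macrophage markers in brain went from 23.4 to 83.2 CPM at 0 hr to 29.7 to 394 at 6 hr. They were 214 to 417 CPM at 24 hr and 230 to 432 CPM at 48 hr, and over the 28 brain libraries their level had a Spearman rho of 0.86 with Socs3 and 0.85 with Il6, a description of libraries that share times and series. In heart that rho was 0.27 and 0.37, while that of the neutrophil markers was 0.73 with Socs3 and 0.77 with Il6 (0.60 and 0.64 in brain). Other marker sets had large values with Socs3 and Il6 too. In brain these were -0.72 and -0.72 for lymphocyte markers, and 0.56 and 0.59 for alveolar markers, which reached at most 5.90 CPM. In heart they were -0.75 and -0.735 for neuron markers. Fibroblast markers in brain went from a median of 1131 CPM at 0 hr to 713 at 6 hr, 4175 at 24 hr and 2413 at 48 hr. Astrocyte markers in brain ran from 1676 to 7472 CPM at 6 hr. The part of these cells in the rise of the members was not tested.

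Before LPS members differed between organs about as often as genes in general. By median level lung ECs had the most Il6st, Stat3, Il6ra, Lif and Socs1, and heart ECs the most Jak1, Jak2 and Osmr. Between brain and lung, 6 members differed, against 55.6% of all genes: Il6st by -1.94 ± 0.38 (log2, brain minus lung, adjusted p = 1.93e-05), Stat3 by -1.89 ± 0.45, Il6ra by -1.74 ± 0.53, Lif by -2.45 ± 0.88 and Socs1 by -2.58 ± 0.82, all lower in brain, and Jak2 by 1.06 ± 0.36, higher in brain. The Il6ra levels of these groups overlapped. The median difference of all genes was 0.50, or 0.82 with RLE in place of TMM scaling.

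Between brain and heart, 4 members differed, against 45.7% of genes: Osmr by -1.80 ± 0.45 (brain minus heart, adjusted p = 0.000607), Jak1 by -1.36 ± 0.37 and Jak2 by -0.77 ± 0.33, all lower in brain, and Il6ra by 1.48 ± 0.51, higher in brain. Between lung and heart, 7 differed, against 49.2% of genes: Il6ra by 3.22 ± 0.55 (lung minus heart, adjusted p = 1.89e-06), Lif by 2.58 ± 0.88, Socs1 by 2.10 ± 0.81 and Il6st by 1.40 ± 0.38, higher in lung, and Jak1 by -1.94 ± 0.42, Jak2 by -1.83 ± 0.37 and Osmr by -1.80 ± 0.49, lower in lung. The counts of 6, 4 and 7 of 10 lie near the shares of all genes, the second below it, and nothing particular to the members is read from them. Without the 3 libraries the counts were 7, 7 and 8, against 55.4, 49 and 50.1% of genes, with Socs3 lower in brain than in lung by 1.45 ± 0.49 (adjusted p = 0.00928) and than in heart (-1.78 ± 0.47, adjusted p = 0.00107). With mouse as a block the counts were 7, 6 and 8 for brain against lung, brain against heart and lung against heart, against 57.4, 46 and 51.3% of genes. The block did not call Socs3 for brain against lung (-0.79 ± 0.43, adjusted p = 0.108), and it gave lung minus heart differences of -3.10 ± 0.42 for Jak1 and -2.44 ± 0.37 for Osmr.

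Compared between genes, with CPM divided by the exon length in kilobases, Il6st led in each organ, with medians of 27.9 (brain), 105.4 (lung) and 40.6 (heart), and its ranges did not overlap those of the next gene but for Jak1 in heart at 32.9. In brain Jak1 (12.5), Stat3 (9.59) and Jak2 (8.04) came next and did not separate from their neighbors, followed by Socs3 (2.05), Il6ra (1.95) and Osmr (1.85), again not separated, then Socs1 (0.548), with Lif (0.0951) and Il6 (0.0289) last. In lung Stat3 (38.1) stood alone below Il6st, and Il6ra (8.35), Socs3 (4.202), Jak1 (3.98), Jak2 (3.97), Socs1 (3.84), Osmr (1.39), Lif (0.376) and Il6 (0.0136) overlapped with their neighbors. In heart the order below Jak1 was Stat3 (18.9) and Jak2 (15.3), then Osmr (7.01) and Socs3 (5.47), then Il6ra (0.769) and Socs1 (0.636), then Lif (0.101) and Il6 (0.0673). By median the IL-6 binding chain stood above the OSM chain in lung and brain, where their ranges overlapped, and below it in heart, where they did not.

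**Figure D4:**
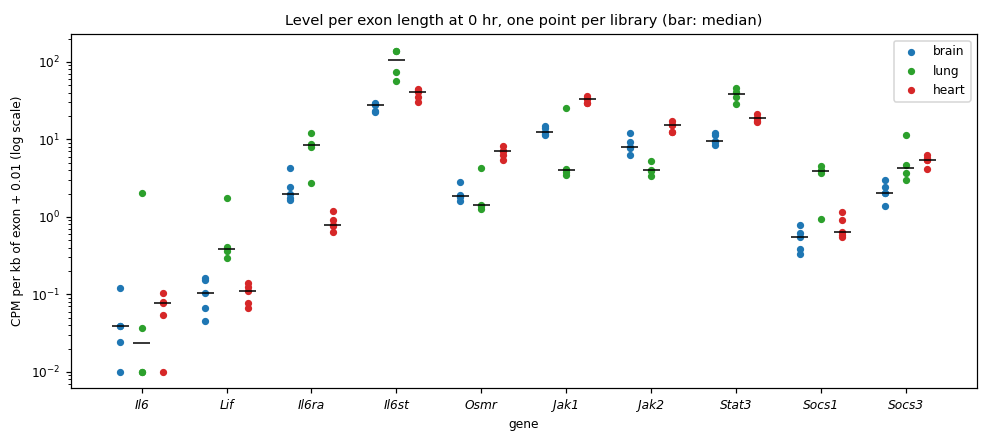
Resting level of the 10 genes at 0 hr (CPM per kilobase of exon plus 0.01, log axis) in brain, lung and heart ECs. Points are libraries and bars the group medians; Il6st has the highest median in each organ, at 27.9, 105.4 and 40.6.

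Whether the response to LPS differed between organs was tested as an interaction in 1 fit of all 80 libraries. At 6 hr Socs1 rose less in lung than in heart (difference of the log2 fold changes -6.56 ± 1.28, adjusted p = 0.000296), as did Il6 (-6.89 ± 2.02, adjusted p = 0.0122) and Il6ra (-2.67 ± 0.77, adjusted p = 0.0105), and Lif rose more in brain than in lung (4.37 ± 1.28, adjusted p = 0.0162). For all genes 18.1% of lung and heart responses and 13.3% of brain and lung responses differed at 6 hr, and these counts of 3 and 1 of the 10 members lie near that background. No member response differed between brain and heart, where 0.636% of genes did. The nearest was Socs1 at 6 hr, with a response in brain smaller by 3.96 ± 1.09 on the log2 scale (brain minus heart -3.96, adjusted p = 0.0672).

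No member response differed between organs at 24, 48, 72 or 168 hr, when the background was 3.85, 3.54, 0.377 and 0.0273% for brain against lung, 0.327, 0.463, 0.318 and 0% for brain against heart, and 1.67, 1.13, 0.154 and 0.0182% for lung against heart. Over the 50 brain and heart interactions, 3 had an unadjusted p under 0.05, for which the share of all genes is not given here, and DESeq2 called 1. Without the 3 libraries the Socs1 response at 6 hr was smaller in brain than in heart (-3.94 ± 1.05, adjusted p = 0.0116), against 6.36% of genes, and with mouse as a block the difference was -3.39 ± 0.81 (adjusted p = 0.0165), against 2.01%. Without them 5 member responses differed between brain and lung (Il6, Lif and Socs3 at 6 hr, Socs3 at 24 hr and Il6 at 48 hr), against 13.7, 4.2 and 3.58% of genes at these times. Likewise 5 differed between lung and heart (Stat3, Il6, Il6ra and Socs1 at 6 hr and Il6 at 24 hr), against 19.7 and 2.29%. By limma-voom without lung 0 hr replicate 1, the Il6 response at 6 hr of brain against lung turned to -0.911 (adjusted p = 0.862).

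With mouse as a block over all 80 libraries, 8 member responses differed between brain and lung, namely 5 at 6 hr (Lif, Jak1, Stat3, Socs1 and Socs3), 1 at 48 hr (Il6) and 2 at 168 hr (Il6ra and Jak1), against 9.44, 2.93 and 9.14% of all genes in that fit. Between lung and heart 7 differed, 5 at 6 hr (Il6, Il6ra, Il6st, Stat3 and Socs1) and 2 at 168 hr (Osmr and Jak1), against 16.2 and 10.3%. Of the responses called without the 3 libraries, the block did not call Il6 at 6 hr (4.29 ± 1.70, adjusted p = 0.0962) or Socs3 at 24 hr (2.19 ± 0.67, adjusted p = 0.0676) for brain against lung, nor Il6 at 24 hr for lung against heart (-5.82 ± 1.71, adjusted p = 0.0826).

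The rest of the pathway was followed in lists chosen by function, against 4.21, 2.56 and 22.4% of all genes that rose at 6 hr in brain, lung and heart and 2.23, 2.27 and 20.3% that fell. Without the 3 libraries these shares were 7.63, 2.38 and 27.8% higher and 6.71, 1.57 and 30.5% lower. Of 9 other ligands of the family, 4 were tested in brain and heart and 6 in lung, and at 6 hr 1, 2 and 2 rose in brain, lung and heart. Il11, which signals through gp130, rose in brain ECs from 0.387 to 0.842 CPM at 0 hr to 0.540 to 48.0 CPM at 6 hr (4.89 ± 0.89, adjusted p = 0.00106). The subunits of IL-27, which also signals through gp130, rose in heart and lung: Ebi3 by 5.19 ± 1.02 (adjusted p = 0.000555) in heart and 3.77 ± 0.85 (adjusted p = 0.00996) in lung, and Il27 by 6.49 ± 1.24 (adjusted p = 0.000444) and 6.70 ± 1.87 (adjusted p = 0.033), from groups that held almost no reads at 0 hr. Of the other receptors, Lifr, which pairs with gp130 for LIF, fell at 6 hr in lung (by 2.52 ± 0.64 on the log2 scale, adjusted p = 0.0219) and in heart (-0.995 ± 0.371, adjusted p = 0.0339), and Il11ra1 rose in heart (0.55 ± 0.22, adjusted p = 0.0498). None of the 5 tested in brain passed at 6 hr with all libraries, and without the 3 libraries Il11ra1 was lower there (-0.77, adjusted p = 0.0108). In heart, 1 higher and 1 lower of 4 receptors is close to the share of all genes.

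Of 8 other JAK and STAT genes, 1 rose in brain at 6 hr (Stat5a, 1.32 ± 0.33, adjusted p = 0.0142), none passed in lung, and in heart 4 rose and 1 fell, with Stat5a up by 2.14 ± 0.36 (adjusted p = 0.000119) Stat4 by 2.82 ± 0.65 (adjusted p = 0.00195) and Stat2, a factor of the interferon response, by 1.59 ± 0.21 (adjusted p = 1.42e-05). Of 6 other SOCS genes, 1 rose in brain, none in lung and 4 in heart. Socs2 rose in both, by 1.34 ± 0.30 (adjusted p = 0.00614) in brain and 1.47 ± 0.31 (adjusted p = 0.000975) in heart, and Socs5 (1.08 ± 0.43, adjusted p = 0.0444) and Cish (1.06 ± 0.34, adjusted p = 0.0155) rose in heart. Among 10 genes of phosphatases, PIAS inhibitors and receptor-cleaving proteases (Adam10 and Adam17), 2 rose in brain, none passed in lung, and 4 rose and 1 fell in heart. Ptpn2, a phosphatase of JAKs and STATs, rose by 1.41 ± 0.31 (adjusted p = 0.00598) in brain and 2.31 ± 0.37 (adjusted p = 8.5e-05) in heart, and Ptpn1 by 1.10 ± 0.23 (adjusted p = 0.00326) and 1.22 ± 0.21 (adjusted p = 0.000145). Pias3, an inhibitor of STAT3, fell in heart by 1.13 ± 0.28 (adjusted p = 0.00317).

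Without the 3 libraries, brain ECs had 1 further ligand lower, Stat2 and Cish also higher and Pias3 also lower. Heart ECs had 1 SOCS gene and 1 more gene of the phosphatase, PIAS and protease list lower, and the lung counts of these lists did not change.

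Among these pathway lists, that of known STAT3 targets had the largest share of calls. The lists were chosen with earlier results of these data known, so this share is no test of STAT3 activity. At 6 hr 16 of 21 tested rose in brain, 8 of 22 in lung and 19 of 21 in heart, with none lower (18, 8 and 19 without the 3 libraries), and their median log2 fold changes were 2.62, 1.44 and 3.15 beside medians of all genes of 0.00, -0.42 and -0.05. Saa3, an acute-phase protein gene, rose by 10.43, 7.63 and 11.43 on the log2 scale in brain, lung and heart, and Lcn2, which encodes the iron-scavenging lipocalin 2, by 8.26, 5.04 and 8.36. Fgg, a fibrinogen chain gene tested in lung alone, rose there by 6.37 ± 1.72 (adjusted p = 0.029), from 0 to 0.725 CPM at 0 hr to 0 to 80.0 CPM at 6 hr. Like Il27, it was near 0 at rest and passed the low-count filter only through libraries after LPS, where it was high. In lung, targets were thus called at 6 hr while Stat3 itself was not, and the 2 results were not tested against each other. Summed neutrophil markers of lung went from a median of 118 CPM at 0 hr to 2737 CPM at 6 hr. Those of endothelium went from 17160 to 5713 CPM, and the part of these shifts in the lung target calls was not tested.

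The genes whose levels followed Socs3 most closely over the 18 group means of organ and time, among the 9022 genes whose log2 CPM averaged 3 or more, were Litaf (r = 0.97), Il4ra (0.97), Irf8 (0.96), Pvr (0.96) and Angptl4 (0.96). Those closest to Stat3 were Ppp1r15a (0.98), Rel (0.98), H13, Ddx54 and Preb (0.97, 0.97 and 0.96). Those closest to Osmr were Ccrl2 (0.97), Ifi47 (0.96), Mvp (0.96), Cebpd (0.95) and Errfi1 (0.95). The 18 means come from libraries that share mice, so these values are descriptions.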

How the data were processed

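RNA bound to HA-tagged ribosomes was sequenced in brain, lung and heart. The authors aligned the reads with STAR 2.4.2 to mm10 and counted them per gene with HTSeq-count 0.6.1, and the values deposited are whole-number counts per gene and run, not normalized. The annotation release and the strand setting are not given in the sources used here. The 217 runs were summed into 98 libraries. Of these 18, all of 1 library series as read from the file names, had 1.73 to 2.75% of reads on genes (155176 to 1330479 counts) and were left out, leaving 80. Gene IDs matched a GENCODE M21 symbol for 52403 of 52550 rows, and rows that name no gene stayed out of library sizes.

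Counts were tested with edgeR 4.0.16 (R 4.3.3), with filterByExpr, TMM factors and the quasi-likelihood test on group plus library series (series 1, 2 and 4), within each organ for LPS and time steps and in 1 fit of all 80 libraries for resting levels and interactions. P-values were adjusted by Benjamini-Hochberg over all genes of a comparison, 19234 in brain, 17058 in lung, 16024 in heart and 22007 in the joint fit, with calls at 0.05. CPM values are relative to the total count on genes times the TMM factor, and log2 CPM used a prior count of 2. The scripts were tested on simulated data. Alternatives were limma 3.58.1 (voom), DESeq2 1.42.0, ComBat of sva 3.50.0, no series term, no filter, replicate or mouse blocks, all 98 libraries, and each library left out. Members and lists were chosen with earlier results of these data known, and named genes are the members, at most 3 genes per pathway list (the largest absolute changes past the threshold at 6 hr) and the 5 genes most like each of Socs3, Stat3 and Osmr. Same-numbered libraries of different organs mostly came from 1 mouse by their file names, and over 57 such pairs their deviations correlated at a median r of 0.073 (-0.228 to 0.486).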

Additional observations from a re-analysis of the deposited data

Results flagged for a closer look

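Among 170 groups of 4 to 6 libraries tested for a single library far from the rest, 20 were flagged, where chance gives about 1 in 20 groups, or 8.5. Of these, 7 were the 3 libraries at 6 hr that stood apart. In brain 6 hr replicate 6, Il6ra was 20.97 CPM against 72.7 to 98.1 in the other libraries, Jak1 100.0 CPM against 137 to 148, and Socs3 5.858 CPM against 141 to 433. In heart 6 hr replicate 5, Il6 was 0 CPM against 135 to 468 and Lif 0.1275 CPM against 7.03 to 13.7. In lung 6 hr replicate 4, the shallowest library, Osmr was 0 CPM against 64.9 to 124 and Stat3 0 CPM against 226 to 952.

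In lung at 0 hr, replicate 4 was flagged for Osmr (51.52 CPM against 15.4 to 17.1), Jak1 (184.5 CPM against 24.8 to 30.1) and Socs1 (2.736 CPM against 10.7 to 13.3), and replicate 1 for Il6 (4.927 CPM against 0 to 0.0659). Later lung flags were Lif in 48 hr replicate 1 (0 CPM against 6.84 to 15.2) and Stat3 in 72 hr replicate 3 (289.9 CPM against 459 to 487). In brain they were Jak2 in 6 hr replicate 2 (89.81 CPM against 40.7 to 47.9), Il6 in 72 hr replicate 5 (3.707 CPM against 0.128 to 0.192), Lif in 72 hr replicate 1 (0.1921 CPM against 0.639 to 0.767) and Il6 in 168 hr replicate 5 (0.02613 CPM, a single read, against 0). In heart at 168 hr, Osmr in replicate 4 (88.43 CPM against 65.8 to 69.1), Jak1 in replicate 1 (205.0 CPM against 264 to 274) and Stat3 in replicate 1 (138.7 CPM against 170 to 173) lay apart.

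The response at 6 hr differed between organs, by an interaction test, for Lif (4.37 ± 1.28 on the log2 scale, brain minus lung) and for Il6 (-6.89 ± 2.02), Il6ra (-2.665 ± 0.767) and Socs1 (-6.562 ± 1.285), lung minus heart.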

How the results depend on the processing

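Of 20 brain calls after LPS, 12 held with each library left out in turn and 5 also under each of the 10 alternatives (Osmr, Il6ra, Socs1 and Socs3 at 6 hr and Socs3 at 24 hr). Of 21 heart calls, 15 and 13 did (all 10 genes at 6 hr, and Il6ra, Socs1 and Socs3 at 24 hr), and neither of the 2 lung calls did. Calls after LPS came to 9 in brain with limma-voom and 11 with replicate as a block, and in lung to 4 with ComBat, 6 with DESeq2, and 1 each with all 98 libraries, limma-voom, no series term or the replicate block. Between successive times, where edgeR called 0, ComBat called 1, 1 and 4 in brain, heart and lung, DESeq2 2, 2 and 1, no low-count filter 9 and 10 in brain and heart, no series term 2 in heart, and the fit without the 3 libraries, chosen after seeing the data, 4 and 14 in brain and heart. At rest, brain and heart differed in 2 members with ComBat, 1 with all 98 libraries and 7 without the 3 libraries. Responses that differed between brain and heart numbered 1 with DESeq2, the mouse block, the replicate block, no filter or without the 3 libraries. Those between brain and lung numbered 5 with ComBat, 2 with DESeq2, 0 with limma-voom, 8 with the mouse block, 9 with no filter and 5 without the 3 libraries, and those between lung and heart 6 with ComBat, 1 with limma-voom, 7 with the mouse block, 8 with no filter, 5 with the replicate block and 5 without the 3 libraries. With each library left out, LPS calls ran from 14 to 23 in brain, 15 to 24 in heart and 0 to 3 in lung, steps from 0 to 4, 0 to 14 and 0 to 0. Baseline differences then ran from 2 to 5 (brain against heart), 3 to 6 (brain against lung) and 5 to 6 (lung against heart), and differing responses from 0 to 2, 0 to 3 and 1 to 5, both by limma-voom, which with all libraries gave 3, 5, 5 and 0, 0, 1. The lung count was 1 without 0 hr replicate 1 or 6 hr replicate 1 and 0 without 0 hr replicate 2 or 3. The heart steps were 14 without heart 6 hr replicate 5, and the brain steps 4 without brain 6 hr replicate 6 and 1 each without brain 6 hr replicate 2, 24 hr replicate 2 or 48 hr replicate 3. Brain and heart differed at rest in 2 members without brain or heart 0 hr replicate 4, and brain and lung in 3 without lung 0 hr replicate 1, 2 or 3. Responses that differed numbered 5 between lung and heart without lung 0 hr replicate 4, 3 between brain and lung without lung 6 hr replicate 3, 2 without lung 0 hr replicate 4, and 2 between brain and heart without heart 6 hr replicate 5. Socs3 in lung at 6 hr reversed to -0.13 with ComBat (adjusted p = 0.932), and the Il6 response of brain against lung to -0.911 without lung 0 hr replicate 1 (limma-voom, adjusted p = 0.862). The causes were not tested. RLE scaling moved the median of all genes by 0.31 (log2) in lung at 6 hr, from 436 genes higher and 388 lower to 766 and 393, and by 0.32 and 0.28 in the resting brain comparisons with lung and heart. Of 82 results for single members, 80 kept their direction and call under it. Depth limits Il6 and Lif at rest, with 8 to 18 Il6 reads per organ at 0 hr.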

Other observations

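Within 1 time, mice stood high or low in brain and heart together for part of the pathway, Il6st excepted. At 48 hr, over 6 mice, the brain and heart deviations from the group mean correlated at r = 0.99 for Stat3, 0.95 for Socs1, 0.94 for Jak1 and 0.94 for Socs3, and at -0.34 for Il6st. Replicates 1 and 2 of that time, which held the lowest Socs3 in both organs, and which in brain also differed in mural, astrocyte, neuron and fibroblast markers as given above, held the most summed neutrophil markers in brain (191 and 143 CPM against 50.6 to 132 in the other 4 libraries) and in lung (4886 and 2540 CPM against 669 to 1242), and held 49.0 and 37.4 CPM against 13.8 to 38.7 in heart.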
